A study of Mus musculus with 4 samples.

Results

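The miR-30 family is represented here by 5 mature strands of the 5′ hairpin arm (5p), mmu-miR-30a-5p, mmu-miR-30b-5p, mmu-miR-30c-5p, mmu-miR-30d-5p and mmu-miR-30e-5p (written below without the species prefix), which were taken by name from a table of 795 mature mouse miRNAs; all 5 were found. The table describes small RNA of exosomes, vesicles shed into culture medium, from C26 and MC38, both mouse colon carcinoma lines that were grown in medium freed of exosomes. Exosomes of each line were isolated in 2 ways, with the ExoQuick-TC reagent and with a capture ELISA kit from Wako, and each combination of line and isolation kit gave 1 library, 4 in all. Whether these came from separate cultures is not stated. The p-values below cover no more than the spread that the fits leave among the 4 libraries, which may be technical and holds no replicates. Depth differed widely: the library totals inferred from the values were 1356801 reads with ExoQuick and 33692 with Wako in C26. In MC38 they were 340643 reads with ExoQuick and 3867 with Wako. MC38 Wako stands apart: 1 read there is worth 259 RPM (reads per 1000000 reads of the library total), and a count of 0 allows up to 776 RPM, set at 3 reads. In the other libraries a count of 0 allows up to 2.21 RPM (C26 ExoQuick), 89.0 RPM (C26 Wako) and 8.81 RPM (MC38 ExoQuick). The fitted differences of the members are therefore also given without MC38 Wako, and pairwise ratios within ExoQuick and within C26 do not use it. All intervals are exact 95% intervals that cover counting error only.

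A mature miRNA is cut from a hairpin, whose 5p and 3p arms each give a strand. One strand is usually kept as the guide of the silencing complex, and its seed, bases 2 to 8, selects the mRNAs it represses. The miR-30 5p strands share a seed and are known to restrain the epithelial-to-mesenchymal transition factor Snai1 and, in the heart, the matrix-inducing factor Ctgf, and to repress the autophagy gene Becn1 in human cells. They come from 3 pairs of neighbouring hairpins, so each pair can be compared with the others.

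The sequences below are shown because the members differ only downstream of the seed, and because the reads of near-identical strands bear on every value that follows. They are RefSeq sequences on GRCm38.p6, 5′ to 3′, with the seed in capitals; 3 of the 5 members and 4 of the 6 strands of the 3p arms had an entry.
miR-30a-5p: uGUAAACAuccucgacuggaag
miR-30e-5p: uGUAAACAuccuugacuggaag
miR-30c-5p: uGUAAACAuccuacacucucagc
miR-30a-3p: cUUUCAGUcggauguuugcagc
miR-30e-3p: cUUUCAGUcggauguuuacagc
miR-30c-1-3p: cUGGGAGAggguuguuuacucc
miR-30c-2-3p: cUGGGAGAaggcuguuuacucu

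Counted from the 5′ end, miR-30a-5p and miR-30e-5p differ by the single substitution C13U, and their 3p strands by G18A. miR-30c-5p differs from miR-30a-5p at 5 of the 22 bases compared, all after base 12. miR-30b-5p is known to resemble miR-30c-5p downstream of the seed, and miR-30d-5p to resemble miR-30a-5p and miR-30e-5p. The 3p arms carry other seeds, UUUCAGU for miR-30a-3p and miR-30e-3p and UGGGAGA for both miR-30c 3p strands. Whether the authors' read mapping allowed mismatches, or counted a read under several names, is not given in the sources used here. The division of reads between miR-30a and miR-30e is therefore uncertain. No 2 of the 11 strands had the same values in all 4 libraries, but reads shared in part between strands would not show in this. One other mouse miRNA of the RefSeq table, miR-384-5p, has the same seed and was not analysed here.

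The hairpins, shown because 1 mature member has 2 sources, carry both mature strands (capitals) as follows.
Mir30a: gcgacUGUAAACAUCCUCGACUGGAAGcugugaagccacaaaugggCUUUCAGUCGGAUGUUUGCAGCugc
Mir30c-2: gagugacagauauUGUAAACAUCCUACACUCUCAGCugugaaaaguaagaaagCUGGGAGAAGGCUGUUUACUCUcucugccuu
Mir30c-1: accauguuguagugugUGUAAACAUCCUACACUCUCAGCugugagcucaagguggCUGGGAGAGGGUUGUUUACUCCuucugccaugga
Mir30e: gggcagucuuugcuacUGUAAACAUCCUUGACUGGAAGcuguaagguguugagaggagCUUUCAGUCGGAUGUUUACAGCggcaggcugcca

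Mir30a (chr1:23272269-23272339, plus strand) and Mir30c-2 (chr1:23291701-23291784, plus strand) lie 19361 bases apart. In the GENCODE M21 annotation of GRCm38, Mir30a lies in no other annotated gene, and Mir30c-2 lies in an exon of the long noncoding RNA Gm27028. Mir30c-1 (chr4:120769534-120769622, minus strand) and Mir30e (chr4:120772606-120772697, minus strand) lie 2983 bases apart in introns of Nfyc, which encodes a subunit of the transcription factor NF-Y. Mir30b and Mir30d lie 3697 bases apart on the minus strand of chromosome 15, Mir30d in an exon of the long noncoding RNA Gm20732 and Mir30b in no other annotated gene. Since Mir30c-1 and Mir30c-2 give the same 5p strand, reads of miR-30c-5p cannot be assigned to either cluster. Each cluster pairs 1 strand of the a, d and e type with 1 of the b and c type.

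The family was a minor part of these exosomes. In C26 the 5 members together made up 248 RPM with ExoQuick (337 reads, interval 223 to 276 RPM) and 1098 RPM with Wako (37 reads, 773 to 1513 RPM). In MC38 they made up 393 RPM with ExoQuick (134 reads, 330 to 466 RPM) and 2586 RPM with Wako (10 reads, 1241 to 4751 RPM). Taken as 1 miRNA, the sum would rank 120 and 76 among the miRNAs of the C26 libraries (ExoQuick, Wako) and 78 and 48 among those of the MC38 libraries. C26 was thus below MC38 within each kit, and the ExoQuick library below the Wako library within each line. Fewer exosomes that carry a miRNA and fewer copies per exosome cannot be told apart in such libraries.

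miR-30a-5p, from the chromosome 1 cluster, was the highest 5p strand of both ExoQuick libraries. In C26, mmu-miR-30a-5p had 112 reads with ExoQuick (82.55 RPM) and 4 with Wako (119 RPM), and in MC38 55 with ExoQuick (161 RPM) and 0 with Wako. C26 ExoQuick was below MC38 ExoQuick with no overlap of the intervals, while C26 Wako lay between them with an interval (32.3 to 304 RPM) that holds both values. At its MC38 ExoQuick level, 0.624 reads would fall in MC38 Wako, so a lower level was not detectable there.

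mmu-miR-30d-5p, from the chromosome 15 cluster, had 77 reads with ExoQuick (56.75 RPM) and 4 with Wako (119 RPM) in C26, and 29 with ExoQuick (85.1 RPM) and 0 with Wako in MC38. Its partner mmu-miR-30b-5p had 11 reads with ExoQuick (8.11 RPM) and 3 with Wako (89.0 RPM) in C26, and 14 with ExoQuick (41.1 RPM) and 6 with Wako (1552 RPM) in MC38. miR-30b-5p was the lowest member in both C26 libraries and the highest of all 5 in MC38 Wako, where it rests on 6 reads. Of the reads of this cluster's 5p strands, miR-30b-5p gave 12.5% with ExoQuick (6.41 to 21.3) and 42.9% with Wako (9.90 to 81.6) in C26, and 32.6% with ExoQuick (19.1 to 48.5) and all 6 with Wako in MC38. The intervals of C26 ExoQuick and MC38 ExoQuick overlap, as do those of C26 ExoQuick and C26 Wako.

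mmu-miR-30e-5p, from the Nfyc cluster, had 66 reads with ExoQuick (48.6 RPM) and 4 with Wako (119 RPM) in C26, and 7 with ExoQuick (20.55 RPM) and 0 with Wako in MC38. It was the only member with a higher level in C26 ExoQuick than in MC38 ExoQuick. mmu-miR-30c-5p, of the chromosome 1 and the Nfyc cluster, had 71 reads with ExoQuick (52.3 RPM) and 22 with Wako (653 RPM) in C26, and 29 with ExoQuick (85.1 RPM) and 4 with Wako (1034 RPM) in MC38. Both ExoQuick libraries lay below both Wako libraries for miR-30c-5p, and its intervals did not overlap between the kits of a line.

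**Figure D1:**
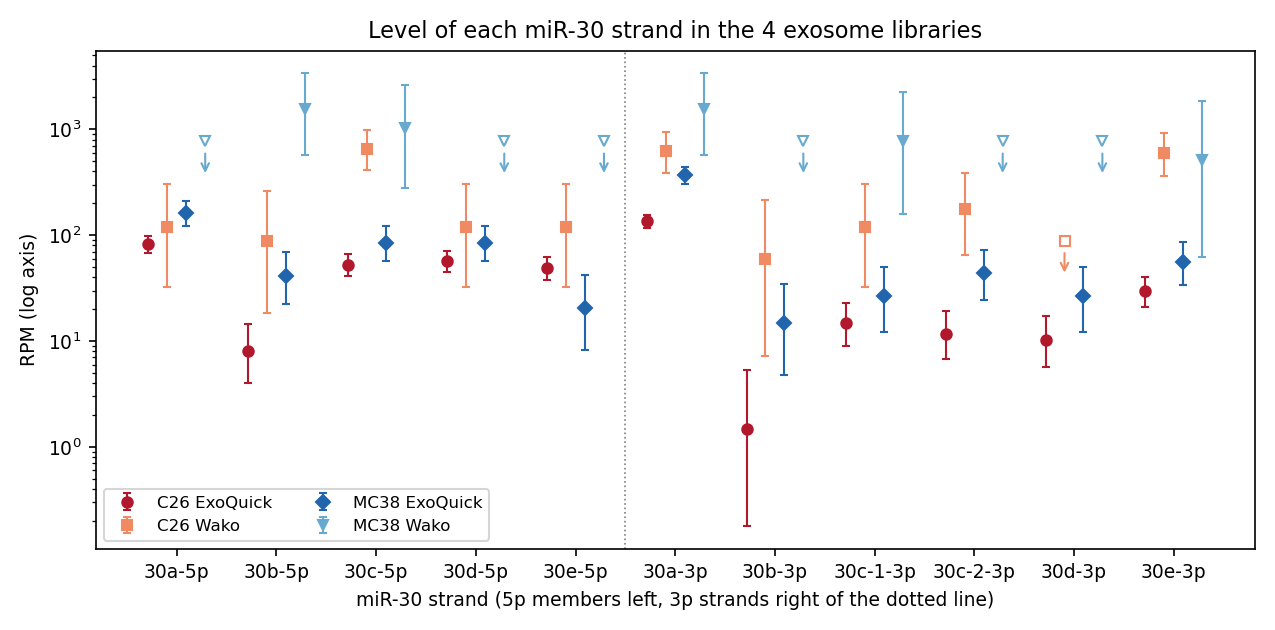
RPM (log axis) of the 5 miR-30 5p members and the 6 strands of the 3p arms in each library, with exact 95% intervals; open symbols with an arrow mark 0 reads and stand at the 3-read limit (776 RPM in MC38 Wako). The ExoQuick values of the 5p members lie between 8.11 and 161 RPM, and miR-30a-3p is above miR-30a-5p in all 4 libraries.

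The study's title poses a difference in exosomal miRNA content of the lines. Within ExoQuick, the deeper kit, 4 of the 5 members had lower levels in C26 than in MC38 and miR-30e-5p a higher one. The ratio of C26 to MC38 ExoQuick was 0.197 for miR-30b-5p (0.0810 to 0.468), 0.511 for miR-30a-5p (0.367 to 0.719) and 0.615 for miR-30c-5p (0.394 to 0.982). It was 0.667 for miR-30d-5p, with an interval that holds 1 (0.430 to 1.06), and 2.37 for miR-30e-5p (1.09 to 6.12), on 66 reads in C26 and 7 in MC38. These intervals compare 2 libraries, not the lines, and have no replicate check. All 5 directions were also seen with median-ratio, TMM and column-sum scaling of the ExoQuick libraries.

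At least 2-fold lower in C26 ExoQuick was 1 of the 5 members, miR-30b-5p, against 23.1% of the 390 miRNAs whose 4 values average 10 RPM or more. At least 2-fold higher was miR-30e-5p, against 37.9% of the 390. These counts depend on the scaling: with median-ratio scaling 4 members were at least 2-fold lower, against 38.5% of the 390, and 0 at least 2-fold higher, against 26.2%. With TMM they were again 1 and 1, and with column-sum scaling 2 lower and 1 higher. The shares of the 390 past 2-fold under TMM and column-sum scaling are not reported here. The median log2 difference was −0.53 over the members and 0.46 over the 390 with TMM, and −0.74 and 0.24 with column-sum scaling. Of 299 miRNAs with 3 or more reads in both libraries, 27.8% were at least 2-fold lower and 28.1% at least 2-fold higher. The median log2 difference was −0.69 over the members and 0.29 over the 390 on the log2(value + 1) scale, and −0.70 over the members and −0.10 over the 299 as log2 ratios. For the summed family, the ratio of C26 to MC38 was 0.631 within ExoQuick (0.515 to 0.777) and 0.425 within Wako (0.207 to 0.958). The Wako ratio rests on miR-30b-5p: without it, the log2 ratio of the sum is −0.0357, against −1.24 with it.

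Within Wako, reads in both libraries were present for 2 members. miR-30b-5p stood at 3 reads in C26 Wako and 6 in MC38 Wako, a ratio of 0.0574 (0.00929 to 0.269), the same direction as under ExoQuick. miR-30c-5p stood at 22 and 4 reads, a ratio of 0.631 (0.214 to 2.52), close to its ExoQuick ratio but with an interval that holds 1. For miR-30a-5p, miR-30d-5p and miR-30e-5p, the 119 RPM of C26 Wako lie below the 776 RPM that 0 reads in MC38 Wako allow. Their ratios have a lower limit of 0.0758 and no upper limit, so neither direction can be read at that depth.

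In the fit over both kits (limma on log2(value + 1), line and kit as terms, Benjamini-Hochberg adjustment over 390 miRNAs), 0 of the 5 members passed an adjusted p of 0.05 for the line, against 3.33% of all miRNAs tested. On the recovered reads 0 members passed in edgeR and 0 in DESeq2, against 4.87% and 3.85% of all miRNAs. At unadjusted p under 0.05 there were 0 members in limma (11.8% of all), and miR-30b-5p alone in edgeR (14.9% of all) and DESeq2 (11.3% of all). The limma log2 difference of C26 minus MC38 was −3.16 for miR-30b-5p (SE 2.27, adjusted p = 0.711) and −0.68 for miR-30c-5p (SE 1.45, adjusted p = 0.834). For miR-30e-5p it was 4.05 (SE 4.16, limma adjusted p = 0.715). miR-30a-5p and miR-30d-5p had fitted differences of 2.97 and 3.16 (limma adjusted p = 0.756 and 0.771), opposite in sign to their ExoQuick ratios. The values of miR-30a-5p, miR-30d-5p and miR-30e-5p rest on the 0 reads of MC38 Wako, which the pseudocount turns into a low value: without that library, the log2 differences are −0.70, −0.0508 and 1.84. In DESeq2, with all 4 libraries, miR-30e-5p has 0.86. miR-30b-5p has −0.56 without MC38 Wako and −5.76 without MC38 ExoQuick. miR-30c-5p has 1.12 without MC38 Wako and 1.13 without C26 ExoQuick; these fits of 3 libraries hold no kit term and assume that a lone library varies like the others.

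**Figure D2:**
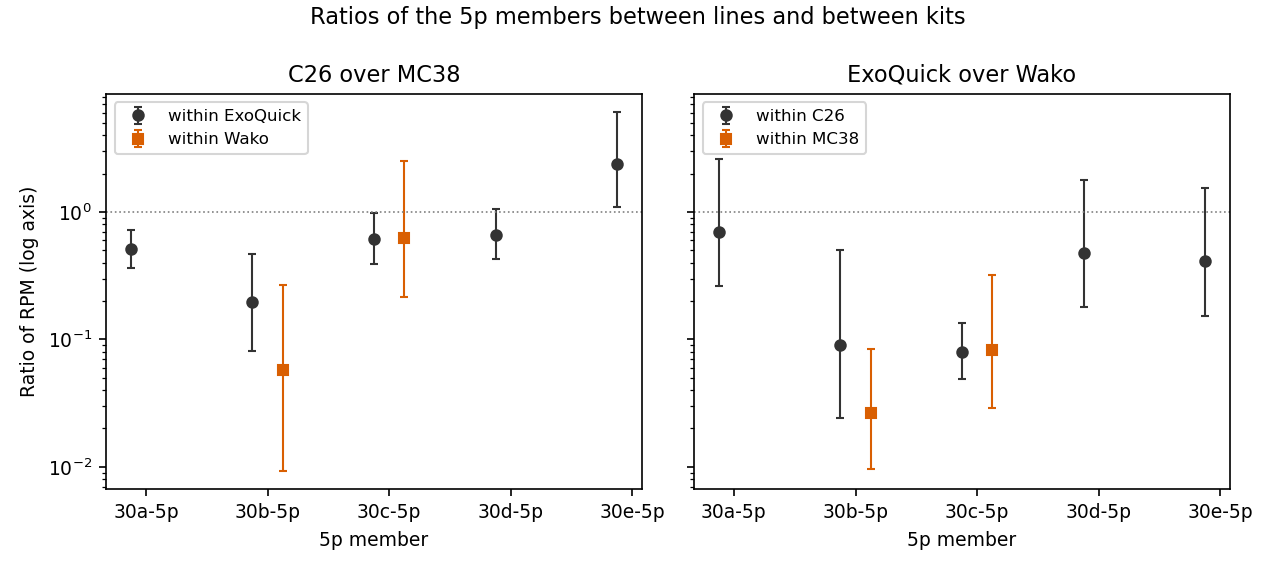
Ratio of RPM (log axis, exact 95% intervals) of each 5p member, C26 over MC38 within each kit on the left and ExoQuick over Wako within each line on the right; pairs with 0 reads in a library have no point. miR-30e-5p is the only member above 1 on the left (2.37 within ExoQuick), and miR-30b-5p and miR-30c-5p lie at or below 0.0911 on the right.

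Between the kits, miR-30b-5p and miR-30c-5p differed more than the other members, though some 3p strands, given further below, had C26 ratios as low. For miR-30c-5p the ratio of ExoQuick to Wako was 0.0801 in C26 (0.0491 to 0.136) and 0.0823 in MC38 (0.0289 to 0.322). For miR-30b-5p it was 0.0911 in C26 (0.0241 to 0.508) and 0.0265 in MC38 (0.00956 to 0.0841), on 3 and 6 Wako reads. Among miRNAs with 3 or more reads in both kits, 53.8% were at least 2-fold lower with ExoQuick in C26 and 68.9% in MC38. For miR-30a-5p, miR-30d-5p and miR-30e-5p, the C26 ratios of ExoQuick to Wako were 0.695, 0.478 and 0.410, each on 4 Wako reads and each with an interval that holds 1. Summed, the a, d and e strands of C26 had a ratio of 0.528 (0.297 to 1.03), against 0.0814 for b and c (0.0515 to 0.133), and these intervals do not overlap. Of the 25 C26 Wako reads of b and c, 22 were miR-30c-5p. The C26 interval of miR-30b-5p by itself overlaps those of miR-30a-5p (0.264 to 2.60), miR-30d-5p (0.179 to 1.80) and miR-30e-5p (0.153 to 1.55). In MC38 these 3 members had 0 Wako reads, and 1.03 reads would be there at their summed ExoQuick level.

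This division does not depend on how the libraries are scaled, since it can be read from the make-up of the family. miR-30b-5p and miR-30c-5p together gave 24.3% of the 5p reads in C26 ExoQuick (19.8 to 29.3) and 67.6% in C26 Wako (50.2 to 82.0). In MC38 they gave 32.1% with ExoQuick (24.3 to 40.7) and 10 of 10 reads with Wako (lower limit 69.2%). The intervals did not overlap between the kits in either line, while those of C26 ExoQuick and MC38 ExoQuick did. By cluster, the chromosome 15 pair miR-30b-5p and miR-30d-5p gave 26.1% and 18.9% in C26 ExoQuick and C26 Wako, with overlapping intervals (21.5 to 31.1 and 7.96 to 35.2). The grouping into b and c against a, d and e was chosen after the values were seen and is a description of these libraries. The Wako libraries were also the shallower ones of both lines, so kit and depth cannot be told apart here.

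Between the lines, 1 member's share of the family differed by more than counting error within ExoQuick in each direction. miR-30e-5p gave 19.6% of the 5p reads in C26 ExoQuick (15.5 to 24.2) and 5.22% in MC38 ExoQuick (2.13 to 10.5). miR-30b-5p gave 3.26% (1.64 to 5.77) and 10.4% (5.83 to 16.9) in the same libraries. The shares of miR-30a-5p (33.2% and 41.0%), miR-30c-5p (21.1% and 21.6%) and miR-30d-5p (22.8% and 21.6%) had overlapping intervals in C26 and MC38 ExoQuick.

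**Figure D3:**
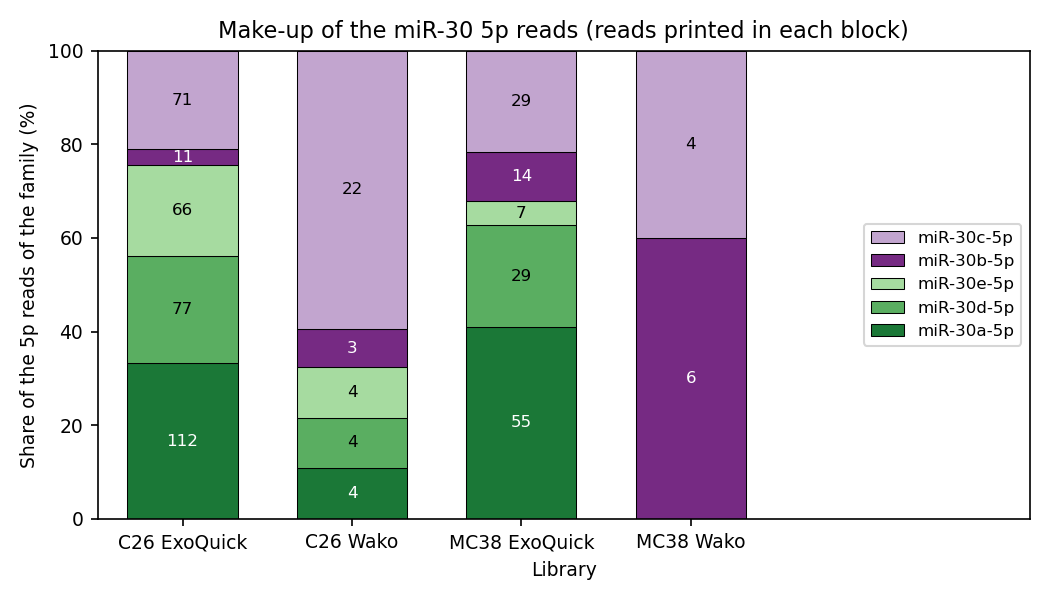
Share of each member in the 5p reads of the family (%), by library, with the number of reads in each block; green blocks are miR-30a-5p, miR-30d-5p and miR-30e-5p, purple blocks miR-30b-5p and miR-30c-5p. The purple blocks take 24.3% and 32.1% of the ExoQuick libraries of C26 and MC38 and 67.6% of C26 Wako, and all 10 reads of MC38 Wako.

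In the same limma fit, 0 of the 5 members passed for the kit (Benjamini-Hochberg adjusted p from 0.148 to 0.966), against 5.38% of the 390 miRNAs. In edgeR and DESeq2 0 members passed, against 1.79% and 4.1% of all miRNAs. The lowest limma value belonged to miR-30c-5p, with a log2 difference of ExoQuick minus Wako of −3.60 (SE 1.45, unadjusted p = 0.0134, adjusted p = 0.148 in limma). It was the only member at unadjusted p under 0.05 in limma (13.6% of all miRNAs), where edgeR had miR-30b-5p and miR-30c-5p (18.2% of all) and DESeq2 miR-30b-5p (14.6% of all). miR-30b-5p differed by −4.25 (SE 2.27, limma adjusted p = 0.419). Without MC38 Wako, the differences are −2.20 for miR-30b-5p and −3.27 for miR-30c-5p. The fitted values of miR-30a-5p, miR-30d-5p and miR-30e-5p, 3.41, 2.69 and 1.58, again rest on the 0 reads of MC38 Wako, and are −0.0393, −0.76 and −1.87 without it. In C26 alone, 4 of the 5 members were at least 2-fold lower with ExoQuick, against 50.3% of the 390 miRNAs. The medians there were −1.27 over the members and −1.03 over the 390. With TMM scaling, miR-30a-5p, miR-30d-5p and miR-30e-5p turn to higher with ExoQuick in C26 (log2 1.33, 0.79 and 0.57), and with median-ratio scaling miR-30a-5p does (0.38). miR-30b-5p and miR-30c-5p stay lower with ExoQuick under each of these scalings, with log2 ratios of −1.60 and −1.79 in C26 at their nearest to 0 (TMM). The median of the 390 in C26 moves to −0.13 with median-ratio scaling and 0.72 with TMM. The summed members also stay lower with ExoQuick under each of these scalings, but the size depends on the scaling. Their log2 ratio in C26 is −2.14 as deposited and −0.29 with TMM. In MC38 it is −2.72 as deposited and −0.76 with median-ratio scaling.

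The 3p arms of the miR-30 hairpins, which are not members, had read totals of the same order as the 5p arms, with 275 and 53 reads in C26 (ExoQuick, Wako) and 182 and 11 in MC38. Of all reads of the 11 strands, the 5p strands gave 55.1% with ExoQuick and 41.1% with Wako in C26, and 42.4% with ExoQuick and 47.6% with Wako in MC38. The 3p reads come largely from miR-30a-3p, which had 183 reads with ExoQuick (135 RPM) and 21 with Wako (623 RPM) in C26, and 125 with ExoQuick (367 RPM) and 6 with Wako (1552 RPM) in MC38. It was the highest of the 11 strands in both ExoQuick libraries. Of the reads of Mir30a, the 5p strand gave 38.0% with ExoQuick (32.4 to 43.8) and 16% with Wako (4.54 to 36.1) in C26, and 30.6% with ExoQuick (23.9 to 37.8) and 0 of 6 with Wako (upper limit 45.9%) in MC38. The 3p strand was thus the more abundant one of this hairpin in every library, with intervals that lie below 50%.

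Mir30e showed a different major strand in the lines within ExoQuick. miR-30e-3p had 40 reads with ExoQuick (29.5 RPM) and 20 with Wako (594 RPM) in C26, and 19 with ExoQuick (55.8 RPM) and 2 with Wako (517 RPM) in MC38. The 5p strand gave 62.3% of the hairpin's reads in C26 ExoQuick (52.3 to 71.5) but 26.9% in MC38 ExoQuick (11.6 to 47.8) and 16.7% in C26 Wako (4.74 to 37.4). Among 96 hairpins with at least 20 reads in both ExoQuick libraries, 7.29% had a different major strand in C26 and MC38, and only 2 had a larger difference in 5p share than miR-30e. Between C26 ExoQuick and C26 Wako, 8.22% of 73 such hairpins differed in their major strand, among them miR-30e, which had the second largest difference in 5p share. The miR-30a and miR-30e strands differ by 1 base in each arm, and the uncertain division of reads between them applies to these shares too.

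The other hairpins had their 5p strand as the major one wherever they had reads; among the 96 hairpins, 45.8% had a 5p majority in C26 ExoQuick. miR-30d-5p gave 84.6% of its hairpin's reads in C26 ExoQuick (75.5 to 91.3), 4 of 4 in C26 Wako and 76.3% in MC38 ExoQuick (59.8 to 88.6), and neither strand had reads in MC38 Wako. miR-30b-5p gave 84.6% in C26 ExoQuick and 73.7% in MC38 ExoQuick, of 13 and 19 reads. miR-30c-5p gave 66.4% of the reads of both its hairpins with ExoQuick (56.6 to 75.2) and 68.75% with Wako in C26, and 54.7% with ExoQuick (40.4 to 68.4) and 4 of 7 reads with Wako in MC38.

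The 3p strands of miR-30c tell its hairpins apart. miR-30c-1-3p, from the Nfyc cluster, had 20 reads with ExoQuick (14.7 RPM) and 4 with Wako (119 RPM) in C26, and 9 with ExoQuick (26.4 RPM) and 3 with Wako (776 RPM) in MC38. miR-30c-2-3p, from the chromosome 1 cluster, had 16 with ExoQuick (11.8 RPM) and 6 with Wako (178 RPM) in C26, and 15 with ExoQuick (44.0 RPM) and 0 with Wako in MC38. miR-30c-1-3p thus gave 55.6% of these 3p reads in C26 ExoQuick (38.1 to 72.1) and 37.5% in MC38 ExoQuick (18.8 to 59.4), and both intervals hold 50%.

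All 6 strands of the 3p arms had lower levels in C26 ExoQuick than in MC38 ExoQuick, with ratios from 0.100 (miR-30b-3p, on 2 and 5 reads) to 0.558 (miR-30c-1-3p). For miR-30a-3p the ratio was 0.368 (0.291 to 0.465). Summed, they had a ratio of 0.379 within ExoQuick (0.313 to 0.460), against 0.631 for the 5p members. Within Wako the order was the other way, 0.553 (0.285 to 1.17) against 0.425 for the 5p members, on 11 and 10 reads in MC38. The C26 ratio of ExoQuick to Wako was 0.129 for the summed 3p strands (0.0957 to 0.176), against 0.226 for the 5p members. It ran from 0.0248 (miR-30b-3p, on 2 reads each) to 0.216 (miR-30a-3p), with miR-30e-3p at 0.0497 (0.0284 to 0.0897). miR-30d-3p had 0 reads in C26 Wako. In MC38 the summed ratio was 0.188 (0.103 to 0.383), against 0.152 for the 5p members. In limma, 0 of the 5 tested strands of the 3p arms passed for the line (adjusted p from 0.711 to 0.925), against 3.33% of the 390 miRNAs. For the kit 0 passed (limma adjusted p from 0.272 to 0.988), against 5.38%. miR-30d-3p did not reach the mean of 10 RPM. At unadjusted p under 0.05 there was miR-30e-3p alone, for the kit in limma, against 13.6% of all miRNAs. For the line there were 0 in limma (11.8% of all). In edgeR (14.9% for the line, 18.2% for the kit) and DESeq2 (11.3% and 14.6%) there were 0.

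**Figure D4:**
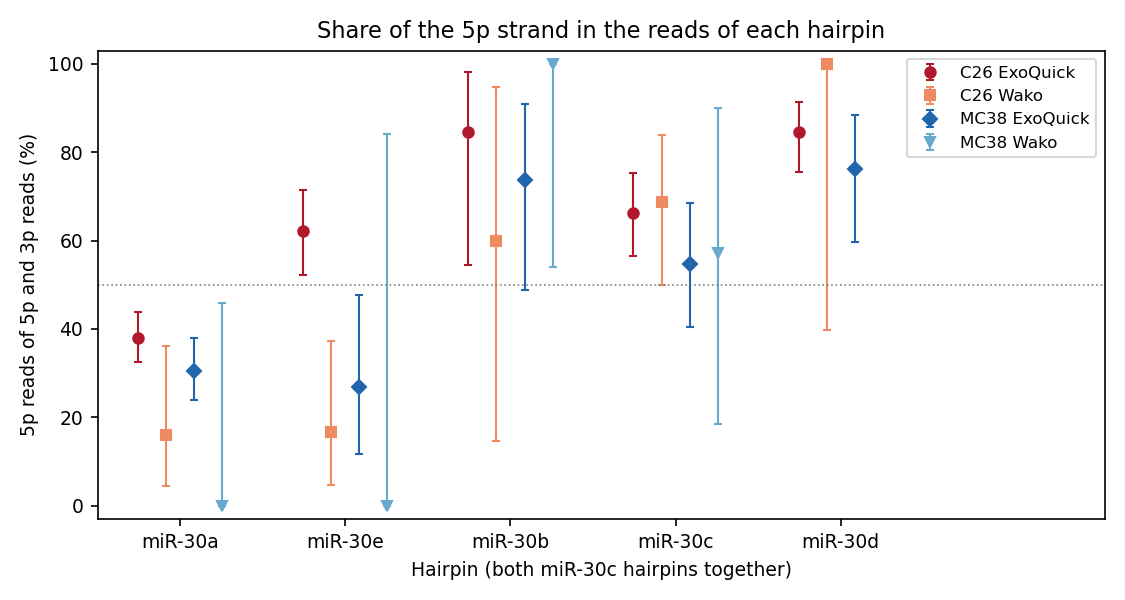
Share of the 5p strand in the 5p and 3p reads of each miR-30 hairpin (%), by library, with exact 95% intervals; a library with no reads of a hairpin has no point. miR-30a lies below 50% in all 4 libraries, and miR-30e at 62.3% in C26 ExoQuick, 16.7% in C26 Wako and 26.9% in MC38 ExoQuick.

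By the distance of centred log2(value + 1) profiles over the 4 libraries, the most similar of 76 miRNAs averaging 1000 RPM or more to the summed family were miR-744-5p (distance 0.694), let-7c-5p (0.989), miR-301a-3p (1.45), miR-342-3p (1.62) and let-7g-5p (1.65). The values of miR-744-5p were 419 and 1989 RPM in C26 (ExoQuick, Wako) and 420 and 2845 RPM in MC38. With 4 libraries, of which the Wako pair is high for all of these, such a likeness is a description only.

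Among miRNAs described, like miR-30, as repressing Ctgf, 4 of 6 were analysed (miR-18a-5p, miR-19a-3p, miR-19b-3p and miR-26a-5p). Of these, 0 of 4 passed for the line or the kit in limma (lowest adjusted p = 0.807 and 0.745), against 3.33% and 5.38% of the 390 miRNAs. Their summed level was 30370 and 11605 RPM in C26 (ExoQuick, Wako) and 21134 and 17326 RPM in MC38. Of 7 miRNAs typical of epithelium, miR-203-3p alone was analysed, with 12 reads in C26 ExoQuick, 2 in MC38 ExoQuick and 0 in both Wako libraries.

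The labelled origin was checked on miRNAs of intestinal epithelium, of which miR-192-5p and miR-194-5p, 2 of 8 on the list, were analysed. They summed to 75.9 and 148 RPM in C26 (ExoQuick, Wako) and to 64.6 and 1034 RPM in MC38, and miR-192-5p had 0 reads in MC38 Wako. In limma 0 of 2 passed for the line or the kit, against 3.33% and 5.38% of the 390 miRNAs. The 4 white blood cell miRNAs summed to 4656 and 6114 RPM in C26 and to 79.3 and 6465 RPM in MC38. In limma 1 of these 4, miR-142a-5p, passed as higher in C26 than in MC38 (adjusted p = 0.0338), against 3.33% of all miRNAs. For the kit, 2 of 4, miR-142a-5p and miR-150-5p, passed as lower with ExoQuick than with Wako (limma adjusted p = 0.0155 and 0.0336), against 5.38%. The direction of both calls of miR-142a-5p rests on MC38 ExoQuick. It had 4584 and 2909 RPM in C26 (ExoQuick, Wako) and 35.2 and 4913 RPM in MC38, so that C26 was lower than MC38 within Wako, and ExoQuick higher than Wako within C26. Without MC38 ExoQuick, its line difference is −0.43 and its kit difference 0.28, while without any other single library both keep their sign. In edgeR and DESeq2 neither difference of miR-142a-5p passes. The kit difference of miR-150-5p passes in both (adjusted p = 0.000302 in edgeR and 0.000563 in DESeq2). miR-150-5p in MC38 ExoQuick and miR-223-3p in MC38 Wako were at 0 reads. The 4 miRNAs of red cells and liver summed to 635 and 1098 RPM in C26 and to 787 and 1034 RPM in MC38, with miR-144-3p at 0 reads in both MC38 libraries. In limma 0 of 4 passed for the line or the kit, against the same 3.33% and 5.38%. Of 4 muscle miRNAs, miR-206-3p was analysed, with 6 reads in MC38 ExoQuick and 0 elsewhere. In the deposited values, both the summed white blood cell miRNAs and the summed red cell and liver miRNAs were lower with ExoQuick than with Wako in both lines. The red cell and liver sum of MC38 Wako rests on 4 reads. With TMM or median-ratio scaling, the red cell and liver sum turns to higher with ExoQuick in both lines, and the white blood cell sum does in C26. The summed miR-30 members stay lower with ExoQuick under both scalings. Not every listed miRNA was lower with ExoQuick as deposited. Besides miR-142a-5p in C26, miR-122-5p of the red cell and liver list was higher with ExoQuick in both lines. It had 413 and 59.4 RPM in C26 (ExoQuick, Wako) and 746 and 259 RPM in MC38. The part of these lists in the kit difference was not tested.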

How the data were processed

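Per the file headers, the table deposited by the authors holds 1 normalized signal value per known mature miRNA and library. DESeq2 is the tool named, with no version or role, per the submitters' processing notes. What aligned and counted the reads, on which genome build and with which miRBase release, is not given in the sources used here. Taking a single whole-number total per library, 100% of the values above 0 came out as whole reads within 0.006 of the deposited value, so the values were read as RPM and whole reads were recovered. This total is the inferred divisor of the values. The recovered reads of all listed miRNAs sum to more than it in every library. They sum to 1434877 and 34877 in C26 (ExoQuick, Wako) and 347527 and 3953 in MC38. A read may thus be counted under more than 1 name. RefSeq had a mature sequence for 650 of the 795 names.

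Ratios of reads have exact conditional binomial intervals, and shares and levels Clopper-Pearson intervals, at 95%. Without molecular identifiers, reads are not independent molecules, so these cover counting error only. The fit across miRNAs was limma 3.58.1 (R 4.3.3) on log2(value + 1) with a trended prior variance, over the 390 miRNAs averaging 10 RPM or more, with line and kit as additive terms. It leaves 1 residual degree of freedom, which is the departure from additive line and kit terms, not a spread of replicates. The fitted prior had infinite degrees of freedom. The spread is therefore taken from the trend over all miRNAs, with no weight for the residual of the single miRNA. Fold changes on that scale depend on the pseudocount of 1 where a library has 0 reads. P-values are two-sided. Alternatives included other pseudocounts, filters and scalings, edgeR 4.0.16 and DESeq2 1.42.0 on the recovered reads, and leaving out each library.

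The members and lists were chosen with earlier results of these data known. The miRNAs named are the members, the 3p strands, miRNAs with the same seed, the 5 nearest profiles and the members of the lists.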

Additional observations from a re-analysis of the deposited data

Results flagged for a closer look

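miR-30e-3p was the only strand with reads in all 4 libraries whose direction between the lines differed by kit. The ratio of C26 to MC38 was 0.529 within ExoQuick (exact 95% interval 0.299 to 0.966) and 1.15 within Wako (0.279 to 10.1, on 20 reads in C26 and 2 in MC38). With TMM scaling the Wako log2 ratio is −0.0682, below 0 as within ExoQuick. The Wako interval holds the ExoQuick ratio, and the difference between the kits was not tested.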

How the results depend on the processing

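The count of members past the threshold was 0 for the line and 0 for the kit in limma, and 0 under each of the 18 other fits of either comparison, including those without 1 library, edgeR and DESeq2. With a mean of at least 100 RPM, 1 of these fits, the count is out of 2 members, since miR-30a-5p, miR-30d-5p and miR-30e-5p were not tested there. miR-30b-5p and miR-30c-5p lie below 100 RPM in both ExoQuick libraries and reach that mean through their Wako values. That filter is therefore not independent of the kit comparison. DESeq2 gave no adjusted p for miR-30e-5p in the line comparison and for miR-30a-5p, miR-30d-5p and miR-30e-5p in the kit comparison. The fitted line difference of miR-30a-5p (2.97) turned to −0.0058 with quantile normalization, −0.63 in edgeR and −0.53 in DESeq2, and ran from −0.70 to 6.64 without 1 library. For miR-30d-5p (3.16) it turned to −0.27 in edgeR and −0.20 in DESeq2, and ran from −0.0508 to 6.38 without 1 library. Without 1 library, it ran from −2.49 to 1.13 for miR-30c-5p, from −5.76 to −0.56 for miR-30b-5p and from 1.84 to 6.27 for miR-30e-5p, which had 0.34 with a pseudocount of 1 read of MC38 Wako. The kit difference of miR-30a-5p ran from −0.0393 to 6.86, of miR-30d-5p from −0.76 to 6.14, of miR-30e-5p from −1.87 to 5.03, of miR-30b-5p from −6.31 to −2.20 and of miR-30c-5p from −3.95 to −3.26 without 1 library, and that of miR-30e-5p was −0.0931 with a pseudocount of 1 read of MC38 Wako, chosen after seeing the data. Fits without 1 library hold no term for the other factor. The line and kit differences of miR-30b-5p, the line difference of miR-30e-5p and the kit difference of miR-30c-5p kept their sign under every alternative.

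The log2 ratio of the summed family, C26 to MC38, was −0.66 within ExoQuick and −1.55 with median-ratio scaling, where the median of all 390 is −0.36, against 0.29 as deposited; within Wako it was −0.0357 without miR-30b-5p. With miR-30c-5p left out, whose 5p strand has 2 hairpins, shares were by construction 42.1% (miR-30a-5p), 28.9% (miR-30d-5p) and 24.8% (miR-30e-5p) in C26 ExoQuick, 26.7% for each of these in C26 Wako, 52.4% for miR-30a-5p in MC38 ExoQuick and 100% for miR-30b-5p in MC38 Wako. The 5p share over all hairpins of C26 Wako was 25.9% without miR-30c. The joint share of miR-30b-5p and miR-30c-5p became 4.14%, 20% and 13.3% in C26 ExoQuick, C26 Wako and MC38 ExoQuick without miR-30c-5p, and 24.2% in MC38 ExoQuick without miR-30b-5p; these were chosen after seeing the data. The fit with both terms compares the lines within each kit. No further pairing was possible because each combination of line and kit has 1 library. Depth limits every value of MC38 Wako, where the 5 members have 10 reads in all.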
